A study of Mus musculus with 10 samples.

Results

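The genes described here are 40 genes of the fibroblast and collagen matrix, read in RNA from sorted tumour neutrophils. They were taken by symbol: 18 collagen chains, 8 matrix glycoproteins, 3 small leucine-rich proteoglycans, 6 genes of matrix proteases, their inhibitor and crosslinking enzymes, and 5 genes of fibroblast and mural cell surface and contraction. Each of the 40 symbols matched 1 identifier of the 55385 mouse genes counted, and each had enough counts to be tested. The libraries came from Tomato+ neutrophils of squamous cell carcinomas (SCC) grown from grafted cells, either the parental Sox2low control or Sox2Hi cells. The library descriptions carry the tag C57 throughout, with GFP for the control and Sox2 for the Sox2Hi grafts. All hosts were CatchupIVM-red mice, in which the neutrophil gene Ly6g drives Cre and a red Tomato reporter. Tumours were naive (untreated) or treated with anti-PDL1 and a CD40 agonist, an immunotherapy pair. Each graft gave 3 naive and 2 treated libraries. No label ties a library to its own animal, so the p-values measure the spread between these samples, which may be technical.

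Fibroblasts make most of the matrix of a tumour. They secrete fibrillar collagens, which are hydroxylated and folded in the cell, trimmed outside it, assembled into fibrils with small proteoglycans, and crosslinked by lysyl oxidases. Pericytes and smooth muscle cells contribute contractile and vessel-wall genes, and basement membrane collagens underlie epithelium and vessels. Neutrophils are known as stores of matrix-degrading enzymes and not as makers of fibrillar collagen.

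Libraries held between 13815734 and 22986193 gene counts. The neutrophil markers (14 genes) summed to 0.873% to 1.27% of counts in control naive, 2.40% to 2.87% in control treated, 0.890% to 1.38% in Sox2Hi naive and 1.52% to 1.84% in Sox2Hi treated libraries, and none was at 0 in any library. Ly6g itself had 32 to 246 counts and the Tomato reporter 135 to 514. Reads over olfactory and vomeronasal receptor genes, taken as silent, set an expected background of 1.58% to 8.37% of counts, lowest in the 2 control treated libraries. Values of single genes are CPM, counts scaled to a common library size, after TMM scaling over all tested genes (the all-gene fit). A second fit kept 11274 genes that averaged 5 CPM or more (the expressed-gene fit). Its scaling factors alone shift log2 changes by -0.55 for treatment in control tumours, 0.27 for treatment in Sox2Hi tumours, -0.37 for the naive grafts, 0.45 for the treated grafts and 0.82 for the interaction. A gene is called at an adjusted p-value under 0.05 over all genes tested.

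The 40 genes held a small share of each library, and a larger one in naive than in treated tumours. The 3 control naive libraries held 0.169%, 0.106% and 0.259% of counts on these genes, and the 2 control treated ones 0.0361% and 0.0290%. In Sox2Hi tumours it was 0.200%, 0.180% and 0.268% in the naive libraries and 0.112% and 0.0447% in the treated libraries. The groups did not overlap between naive and treated tumours except that Sox2Hi treated replicate 1 lay above control naive replicate 2. The mean share was 5.47 times higher in naive than in treated control tumours (0.178% ± 0.0767, n = 3, against 0.0325% ± 0.00507, n = 2, SD). In Sox2Hi tumours it was 2.75 times higher (0.216% ± 0.0459, n = 3, against 0.0785% ± 0.0478, n = 2), but 4.83 times without Sox2Hi treated replicate 1 and 1.92 times without Sox2Hi treated replicate 2. Without 1 library the control ratio ran from 4.23 to 6.58. As summed CPM the same ratios were 2.69 and 2.70 in the all-gene fit, and 3.82 and 2.23 in the expressed-gene fit. The share is a description and was not tested. A lower share can come from fewer cells of a type or from less RNA per cell, and in these bulk samples these cannot be told apart.

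**Figure D1:**
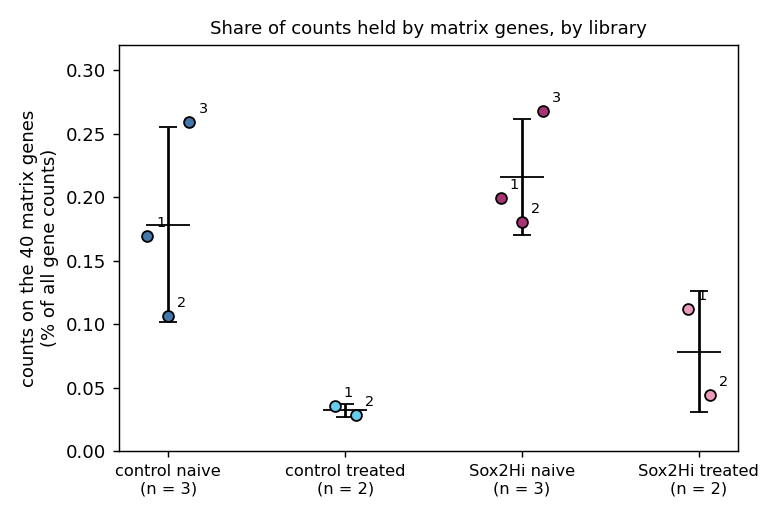
Percent of all gene counts held by the 40 matrix genes in each library, with the replicate number beside each point and the mean and SD as bars. The 2 control treated libraries sit at 0.0361% and 0.0290%, below every naive library.

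Markers of other cells were summed beside this share. Fibroblast markers outside the 40 genes (15 genes) summed to 0.0262% to 0.0414% of counts in control naive, 0.0109% to 0.0152% in control treated, 0.0314% to 0.0409% in Sox2Hi naive and 0.0131% to 0.0216% in Sox2Hi treated libraries. Keratinocyte markers (10 genes), which the tumour cells express, ran from 0.237% to 0.506%, 0.0954% to 0.1603%, 0.400% to 0.574% and 0.183% to 0.311% in the same order. Mast cell markers (6 genes) ran from 0.00382% to 0.0242% in control naive and 0.000645% to 0.00204% in control treated libraries, and from 0.00576% to 0.0102% and 0.00243% to 0.00640% in Sox2Hi naive and treated ones, which overlapped. Macrophage markers (9 genes) ran from 0.0899% to 0.131%, 0.0830% to 0.126%, 0.134% to 0.190% and 0.0942% to 0.152% in the first order, with naive and treated ranges overlapping in both grafts. In treated control tumours edgeR called 5 of these 9 higher (median 0.84) and the expressed-gene fit 2, against 18.7% and 24.1% of all genes. Of the 14 neutrophil markers these fits called 14 and 13 higher there. Endothelial markers (10 genes) ran from 0.00757% to 0.00785%, 0.00320% to 0.00413%, 0.00642% to 0.00684% and 0.00512% to 0.00638% in the first order. Expected background, lowest in the control treated libraries, equalled 35.7% of the endothelial counts, against 6.02% for the fibroblast and 0.326% for the keratinocyte markers. It was not taken out of these sums. T and NK cell markers (10 genes) ran from 0.00576% to 0.00979%, 0.00632% to 0.0226%, 0.00440% to 0.0209% and 0.00997% to 0.0199%, and 5 of the 10 rose in treated control tumours (edgeR, 18.7% of all genes called higher, median 1.56). DESeq2 called 6 of the 10 higher there and limma-voom 2, against 21.4% and 18.4% of all genes. The sum in control treated replicate 1, 0.00632%, lay inside the control naive range. No gene of these lists was at 0 in any library. Their part in the results below was not tested.

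Sparc, the collagen-binding glycoprotein osteonectin, was the most abundant of the 40 genes and held 16.6% to 31.6% of their counts in each library. Per kilobase of exon it averaged 93.6 CPM over 10 libraries. Lum (16.9), Acta2 (14.3), Dcn (13.7), Col1a1 (13.2), Thbs2 (11.3) and Fn1 (10.1 CPM per kilobase) came next, each with a spread over libraries wider than the gaps between them. Col11a1 was lowest at 0.272 CPM per kilobase. The expected background equalled under 5% of the counts of 10 genes: Col1a1, Col1a2, Col3a1, Fn1, Sparc, Thbs2, Cthrc1, Dcn, Lum and Acta2. It equalled at least 50% for 6 genes, Col5a3, Col11a1, Col16a1, Loxl1, Pdgfrb and Fap, and reached 110.2% for Col11a1. Of the other 24 genes, 10 lay between 5% and 20% and 14 between 20% and 50%.

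**Figure D2:**
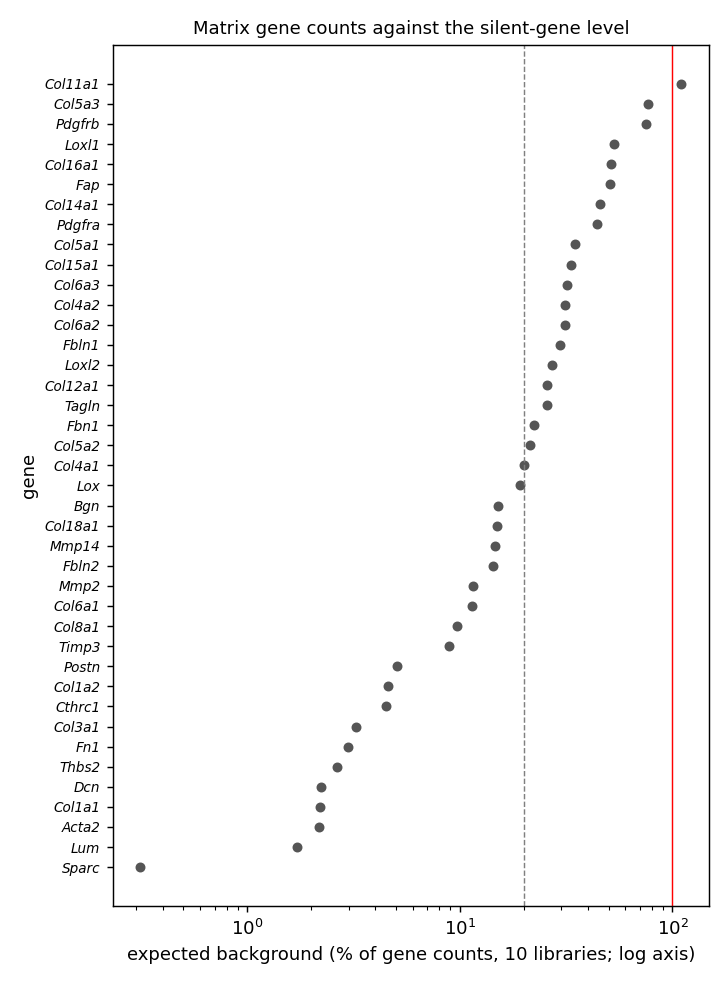
Expected background as a percent of the counts of each matrix gene over 10 libraries (log axis), with a dashed line at 20% and a solid line at 100%. Sparc stands lowest at 0.313%, and Col11a1 is the 1 gene beyond 100%, at 110.2%.

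The makeup of the matrix counts also differed between naive and treated libraries. Col1a1, Col1a2 and Col3a1 together were 17.1% to 25.0% of the 40 genes' counts in the 3 control naive libraries and 8.995% and 10.02% in the 2 control treated libraries. In Sox2Hi tumours they were 18.8% to 22.0% in naive and 14.4% and 10.2% in treated libraries. Fn1, fibronectin, made up 5.69% to 9.97% of them in naive control libraries and 11.1% and 15.2% in treated ones. In Sox2Hi it was 8.33% to 9.04% in naive and 12.6% and 18.4% in treated libraries. In both grafts the fibrillar collagen share was lower and the fibronectin share higher in every treated library than in every naive one.

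Promoters are shown for 3 genes that lay lower in treated tumours and for Acta2, whose control groups overlapped. The windows run from 250 bases before to 50 bases after the RefSeq start site (GRCm38.p6), and 25 of the 40 genes had an entry. Capitals mark matches on either strand to the TATA box (TATAAA), the CCAAT box (its 5 letters) or the GC box (GGGCGG).
Col1a2 promoter, chr6:4505368-4505667 (plus strand): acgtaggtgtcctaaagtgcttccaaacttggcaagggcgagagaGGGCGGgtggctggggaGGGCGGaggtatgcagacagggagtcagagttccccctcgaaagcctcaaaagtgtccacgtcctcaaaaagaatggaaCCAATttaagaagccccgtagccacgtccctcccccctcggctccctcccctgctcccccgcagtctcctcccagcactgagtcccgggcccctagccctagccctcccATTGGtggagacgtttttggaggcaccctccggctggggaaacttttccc
Col3a1 promoter, chr1:45311288-45311587 (plus strand): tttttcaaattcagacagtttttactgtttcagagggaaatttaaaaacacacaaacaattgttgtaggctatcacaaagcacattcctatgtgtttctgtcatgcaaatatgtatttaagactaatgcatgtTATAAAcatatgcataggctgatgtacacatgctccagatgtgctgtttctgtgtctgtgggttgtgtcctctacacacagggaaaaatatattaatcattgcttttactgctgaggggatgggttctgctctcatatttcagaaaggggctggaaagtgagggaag
Postn promoter, chr3:54360857-54361156 (plus strand): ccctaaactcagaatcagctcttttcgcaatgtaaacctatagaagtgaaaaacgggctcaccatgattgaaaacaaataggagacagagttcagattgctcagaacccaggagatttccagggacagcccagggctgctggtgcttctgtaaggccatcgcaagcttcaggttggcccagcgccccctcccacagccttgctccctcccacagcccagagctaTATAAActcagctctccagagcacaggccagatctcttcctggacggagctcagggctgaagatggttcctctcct
Acta2 promoter, chr19:34255324-34255623 (minus strand): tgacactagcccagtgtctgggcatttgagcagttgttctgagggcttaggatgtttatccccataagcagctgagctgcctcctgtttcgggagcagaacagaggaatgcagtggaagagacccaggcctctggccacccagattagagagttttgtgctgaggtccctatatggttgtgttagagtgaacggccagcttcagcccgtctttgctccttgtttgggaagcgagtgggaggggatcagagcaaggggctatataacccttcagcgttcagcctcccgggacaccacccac
The Col1a2 window held 2 CCAAT box and 2 GC box matches, those of Col3a1 and Postn 1 TATA box match each, and that of Acta2 none. The TATA box stood in 3 of the 29 windows of the 25 genes, the CCAAT box in 10 and the GC box in 17. Of all 32851 windows, 13.6%, 37.4% and 35.7% held these motifs. The Col1a2 and Acta2 windows start from RefSeq sites 804 and 217 bases from the GENCODE start of the gene. A match describes these letters only.

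In treated control tumours 19 matrix genes passed the threshold. Of 40 genes, 18 fell and 1, Fap, rose (edgeR quasi-likelihood test), and the change of Fap turned negative with library totals as the only scaling. Over all 29648 genes tested, 15.3% were called lower and 18.7% higher. The median change was -1.0 on the log2 scale for the 40 genes and -0.30 for all genes. All 7 fibrillar collagens fell, though background equalled 107% and 169% of the Col11a1 counts and 72.9% and 80.2% of the Col5a3 counts in control naive and treated libraries. So did 1 of 5 basement membrane and vessel-zone collagens, 3 of 6 beaded-filament and fibril-associated collagens, 5 of 8 glycoproteins and 2 of 3 proteoglycans. None of the 6 protease, inhibitor and crosslinking genes was called in the all-gene edgeR fit, by DESeq2 or by limma-voom, with 0 at an unadjusted edgeR p-value under 0.05, while the expressed-gene fit called 3 of 5 lower. In 24 of 40 genes every treated library lay below every naive one, against 34.8% of all genes. Of the 31 members tested in the expressed-gene fit, 28 fell (33.1% of all genes there), with a median of -1.57.

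The count in control tumours leaned on single libraries. It was 24 lower and 1 higher without control naive replicate 2, against 3418 lower and 4914 higher of 28718 genes. Without control naive replicate 3 it was 13 lower, against 4230 lower of 29306 genes. Leaving out control treated replicate 2 or 1 kept 1 treated library, and the median change of the 40 genes was then -0.93 or -1.15. Cthrc1, Col3a1 and Lum stayed called in every fit that kept at least 2 libraries in each group.

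In treated Sox2Hi tumours 6 matrix genes passed the threshold. Col5a2, Col8a1, Col6a2, Cthrc1, Bgn and Acta2 fell, 6 of 40 genes, against 1.82% of all genes called lower (edgeR quasi-likelihood test). The order of the counts in control and Sox2Hi tumours, 19 and 6, turned to 16 and 23 with DESeq2 (26.0% and 11.3% of all genes called in either direction) and to 15 and 22 with only the groups compared in the fit (25.2% and 10.3%), and limma-voom called 18 and 16 (26.9% and 9.03%). The median change was -1.08 for the 40 genes and 0.07 for all genes. In 34 of 40 genes both treated libraries lay below all 3 naive ones, against 21.8% of all genes. Of 31 in the expressed-gene fit, 12 fell (6.57% of all genes there), with a median of -0.95. Without Sox2Hi treated replicate 2, which left 1 treated library, the median change of the 40 genes was -0.875. Without control naive replicate 2 or 3 the count was 17 or 13, against 2492 of 28718 or 1696 of 29306 genes called. The other 7 fits without 1 library called 1 to 3 genes.

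**Figure D3:**
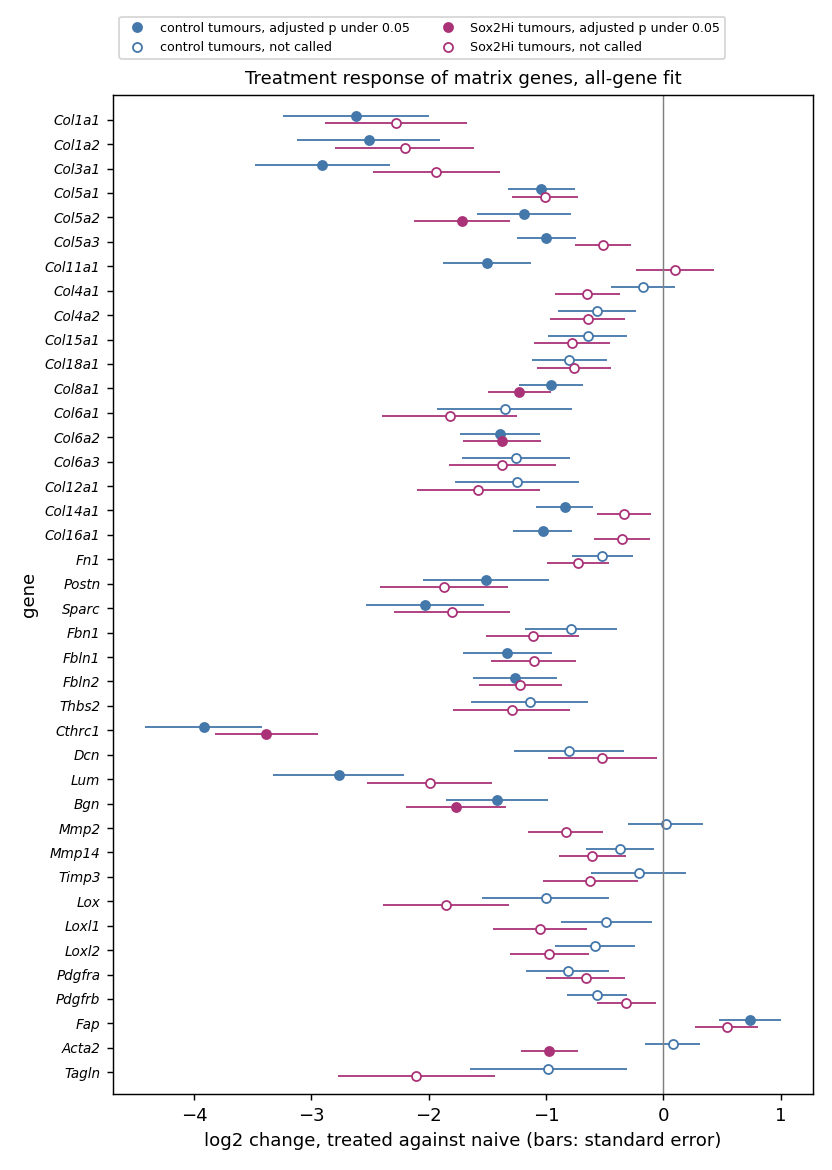
Log2 change of each matrix gene, treated against naive, with standard errors, in control and Sox2Hi tumours in the all-gene fit. Filled points passed the threshold (19 genes in control, 6 in Sox2Hi tumours), and points lie left of 0 for 37 of 40 genes in control and 38 of 40 in Sox2Hi tumours.

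The fibrillar collagens form the tensile fibres of connective tissue, and Col1a1, Col1a2 and Col3a1 encode the chains of types I and III. Col1a1 (chromosome 11, 94936224 to 94953042, GRCm38) was measured at 98.5, 41.2 and 199 CPM in control naive and 22.7 and 14.1 CPM in control treated libraries. Its values were 146, 97.8 and 187 CPM in Sox2Hi naive and 42.7 and 16.6 CPM in Sox2Hi treated libraries. All treated libraries but Sox2Hi treated replicate 1 lay below all naive ones, and that library, at 42.7 CPM, stood just above control naive replicate 2. Col1a1 fell in control tumours by a log2 change of -2.62 (SE 0.62, edgeR adjusted p = 0.00795), or 6.15-fold. In Sox2Hi tumours the change was -2.28 (SE 0.60, edgeR adjusted p = 0.0605) and missed the threshold, which it passed in the expressed-gene fit (-1.998, adjusted p = 0.0327). The partner chain Col1a2 stood at 89.9, 34.0 and 171 CPM in control naive and 17.9 and 16.6 CPM in control treated libraries, and at 129, 98.4 and 170.4 CPM in Sox2Hi naive and 42.5 and 14.98 CPM in Sox2Hi treated libraries. The 2 chains kept a count ratio of 0.844 to 1.27 in every library. Col1a2 changed by -2.51 in control tumours, a call lost without either control treated library, and by -2.20 in Sox2Hi tumours (adjusted p = 0.0633).

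Col3a1 (chromosome 1, 45311538 to 45349706) was at 107, 55.7 and 171 CPM in control naive and 10.99 and 18.6 CPM in control treated libraries. In Sox2Hi tumours it was at 125, 122 and 194 CPM in Sox2Hi naive and 59.2 and 17.5 CPM in Sox2Hi treated libraries. Its control groups did not overlap, and Sox2Hi treated replicate 1 alone of the treated libraries overlapped the range of naive ones. Col3a1 fell by -2.90 (SE 0.57, edgeR adjusted p = 0.00276) in control tumours and differed by -1.93 (SE 0.54, edgeR adjusted p = 0.0692) in Sox2Hi tumours. Col5a1, a chain of the type V collagen that nucleates fibrils, was low, at 8.64, 6.56 and 11.9 CPM in control naive and 4.11 and 4.66 CPM in control treated libraries and 8.69, 7.45 and 11.5 CPM in Sox2Hi naive and 5.03 and 4.11 CPM in Sox2Hi treated libraries, and background equalled 34.9% of its counts. It fell by -1.04 in control tumours (adjusted p = 0.0168) and stood at -1.01 in Sox2Hi tumours (adjusted p = 0.0674). The 3 other fibrillar chains, Col5a2, Col5a3 and Col11a1, were called lower in control tumours at -1.19, -0.997 and -1.50. Col5a2 fell in Sox2Hi tumours too (-1.72 (SE 0.41, edgeR adjusted p = 0.0446)).

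Of the 5 basement membrane and vessel-zone collagens, 1 was called lower in each graft. Col4a1, a chain of the sheet-forming type IV collagen, was at 10.7, 8.95 and 13.8 CPM in control naive and 12.2 and 7.62 CPM in control treated libraries and at 13.2, 12.1 and 17.4 CPM in Sox2Hi naive and 10.6 and 7.61 CPM in Sox2Hi treated libraries. Its control groups overlapped, and the changes were -0.17 and -0.65 (adjusted p = 0.634 and 0.199). Col18a1, the source of endostatin, was at 14.99, 12.8 and 24.2 CPM in control naive and 11.4 and 8.51 CPM in control treated libraries and 14.1, 14.6 and 21.6 CPM in Sox2Hi naive and 11.97 and 7.79 CPM in Sox2Hi treated libraries. Both treated groups of Col18a1 lay below their naive groups, and neither change was called (-0.80 and -0.76). Col8a1, a vessel-wall collagen, was the called member of this group in both grafts, at -0.96 and -1.23. Col4a2 and Col15a1 changed by between -0.78 and -0.57 without a call. In the expressed-gene fit all 5 were called lower in control tumours and 1 in Sox2Hi tumours.

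Among the beaded-filament and fibril-associated collagens, Col6a1 was at 12.2, 4.47 and 21.5 CPM in control naive and 4.11 and 5.84 CPM in control treated libraries and at 19.4, 11.5 and 24.1 CPM in Sox2Hi naive and 7.21 and 3.14 CPM in Sox2Hi treated libraries. Control naive replicate 2 lay within the range of the control treated libraries, and the Sox2Hi groups did not overlap. The changes were -1.35 and -1.82 (adjusted p = 0.0880 and 0.0969), neither called. Its partner Col6a2 fell in both grafts (-1.39 and -1.37), and Col6a3 was not called (-1.25 and -1.37). Col12a1, which decorates type I fibrils, was at 19.9, 8.22 and 31.0 CPM in control naive and 11.4 and 5.25 CPM in control treated libraries and 29.7, 16.5 and 34.4 CPM in Sox2Hi naive and 11.3 and 6.70 CPM in Sox2Hi treated libraries. It showed the same overlap at control naive replicate 2 and changed by -1.25 and -1.58 without a call. The expressed-gene fit called all 4 tested genes of this role, Col6a1, Col6a2, Col6a3 and Col12a1, lower in control tumours and 1 of 4 in Sox2Hi tumours. Col14a1 and Col16a1 fell in control tumours by smaller amounts (-0.84 and -1.03), on counts of which background equalled 45.6% and 51.2%.

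**Figure D4:**
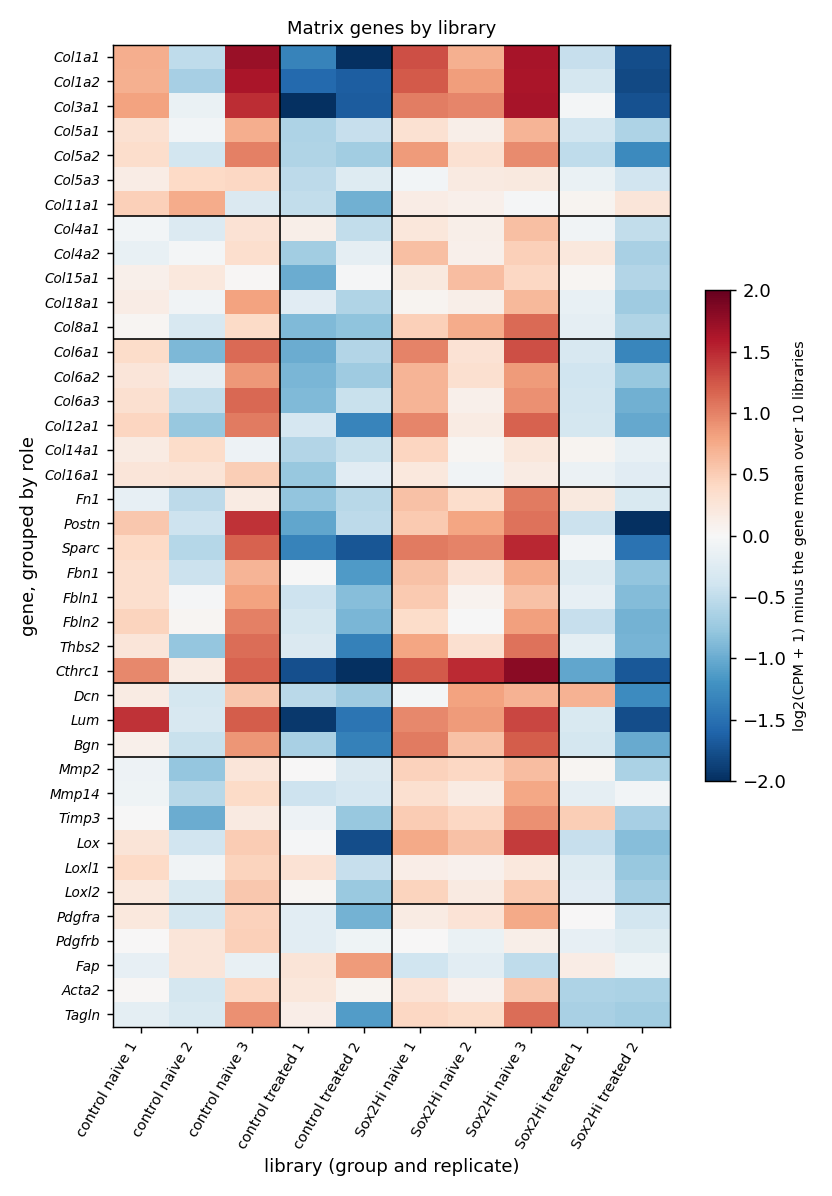
Log2(CPM + 1) of each matrix gene in each library, minus the gene's mean over 10 libraries, with genes grouped by role, black lines between roles and groups, and colours that stop at 2 in either direction. Col1a1, Col1a2, Col3a1, Lum and Cthrc1 show wide spans, and control naive replicate 2 lies nearer to the treated libraries than the other naive ones do for many genes.

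Cthrc1, a secreted glycoprotein known from activated fibroblasts, had the largest fall of the 40 genes in both grafts. Cthrc1 (chromosome 15, 39076932 to 39087121) stood at 13.3, 7.23 and 15.7 CPM in control naive and 1.18 and 0.444 CPM in control treated libraries, which are 14 and 6 counts in the treated ones. In Sox2Hi tumours it was at 16.2, 19.8 and 24.6 CPM in Sox2Hi naive and 2.57 and 1.27 CPM in Sox2Hi treated libraries. Every treated library lay below every naive library. Expected background equalled 4.93% of its counts in control naive and 42.2% in control treated libraries, and 2.13% and 27.6% in Sox2Hi ones. The changes given next include this background. The fall was -3.92 (SE 0.50, edgeR adjusted p = 0.000137) in control tumours, a fitted 15.1-fold, with means of 12.1 ± 4.38 CPM (SD, n = 3) and 0.809 ± 0.517 CPM (SD, n = 2). In Sox2Hi tumours it was -3.38 (SE 0.44, edgeR adjusted p = 0.00292), a fitted 10.4-fold, with means of 20.2 ± 4.23 CPM and 1.92 ± 0.922 CPM, and lost its call without Sox2Hi treated replicate 2 alone. Over the fits without 1 library it ran from -4.73 to -3.34 in control tumours and from -3.97 to -2.98 in Sox2Hi tumours.

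Sparc was at 355, 181 and 612 CPM in control naive and 106 and 81.6 CPM in control treated libraries, and at 553, 534 and 769 CPM in Sox2Hi naive and 259.8 and 95.9 CPM in Sox2Hi treated libraries. The control groups did not overlap, nor did the Sox2Hi groups. Sparc fell by -2.03 (SE 0.50, edgeR adjusted p = 0.00982) in control tumours, a call lost without control treated replicate 2, and changed by -1.80 (SE 0.49, edgeR adjusted p = 0.0659) in Sox2Hi tumours. Fn1 was at 98.1, 76.1 and 123 CPM in control naive and 63.5 and 74.8 CPM in control treated libraries, and at 166, 141 and 226 CPM in Sox2Hi naive and 126 and 88.6 CPM in Sox2Hi treated libraries. The treated libraries of each graft lay below its naive ones by a small margin, and the changes of -0.52 and -0.72 were not called. Postn, periostin, a matricellular partner of collagen, was at 59.5, 30.1 and 112 CPM in control naive and 19.2 and 27.9 CPM in control treated libraries, and at 58.9, 71.1 and 86.9 CPM in Sox2Hi naive and 30.0 and 9.48 CPM in Sox2Hi treated libraries. It fell by -1.51 (SE 0.54, edgeR adjusted p = 0.0480) in control tumours, and 7 of the 10 fits without 1 library lost that call. In Sox2Hi tumours Postn changed by -1.87 (adjusted p = 0.0778).

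Fbn1, fibrillin of the elastic microfibrils, was at 19.3, 10.9 and 24.6 CPM in control naive and 14.9 and 6.29 CPM in control treated libraries, and at 23.1, 18.3 and 25.9 CPM in Sox2Hi naive and 12.5 and 8.27 CPM in Sox2Hi treated libraries. Thbs2, an anti-angiogenic thrombospondin, was at 79.9, 39.1 and 147 CPM in control naive and 54.9 and 25.8 CPM in control treated libraries, and at 117, 84.9 and 145 CPM in Sox2Hi naive and 59.3 and 35.2 CPM in Sox2Hi treated libraries. For both genes control treated replicate 1 lay above control naive replicate 2, and the Sox2Hi groups did not overlap. Neither was called: Fbn1 changed by -0.79 and -1.11, and Thbs2 by -1.14 and -1.29. The fibulins Fbln1 and Fbln2 fell in control tumours (-1.33 and -1.26) and were not called in Sox2Hi tumours (-1.10 and -1.22). All 7 glycoproteins tested in the expressed-gene fit were called lower in control tumours, Fn1 (-1.06), Fbn1 (-1.29) and Thbs2 (-1.62) among them, and 3 of 7 in Sox2Hi tumours.

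The small proteoglycans bind collagen fibrils and set their width. Lum, lumican, was at 82.4, 23.5 and 69.9 CPM in control naive and 7.05 and 10.1 CPM in control treated libraries, and at 58.7, 54.5 and 76.7 CPM in Sox2Hi naive and 23.8 and 7.97 CPM in Sox2Hi treated libraries. Lum fell by -2.77 (SE 0.56, edgeR adjusted p = 0.00317) in control tumours, a fitted 6.80-fold, and changed by -1.99 (SE 0.53, edgeR adjusted p = 0.0614) in Sox2Hi tumours. Bgn, biglycan, was at 10.6, 6.97 and 19.1 CPM in control naive and 5.96 and 3.25 CPM in control treated libraries, and at 21.4, 15.4 and 24.2 CPM in Sox2Hi naive and 7.49 and 4.41 CPM in Sox2Hi treated libraries. Bgn fell in both grafts (-1.42 (SE 0.44, edgeR adjusted p = 0.0276) and -1.77 (SE 0.43, edgeR adjusted p = 0.0456)), with no overlap between naive and treated libraries of either graft. Dcn, decorin, was at 80.8, 56.7 and 106 CPM in control naive and 49.3 and 43.8 CPM in control treated libraries, and at 70.6, 127 and 118 CPM in Sox2Hi naive and 117 and 29.6 CPM in Sox2Hi treated libraries. Sox2Hi treated replicate 1 stood among the highest Dcn values and replicate 2 was the lowest, and neither change was called (-0.80 and -0.52; adjusted p = 0.197 and 0.560). All 3 proteoglycans were called lower in control tumours in the expressed-gene fit, Dcn at -1.32 (edgeR adjusted p = 0.0318).

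The edgeR test called 0 of 6 genes of matrix turnover and crosslinking in either graft in the all-gene fit. In Sox2Hi tumours 4 of the 6 had an unadjusted p-value under 0.05, and DESeq2 called 3 and limma-voom 1. The expressed-gene fit called 3 of 5 lower in control tumours, Mmp14 (-0.89), Lox (-1.50) and Loxl2 (-1.10), and 0 of 5 in Sox2Hi tumours. Mmp2, gelatinase A, was at 7.89, 4.63 and 10.4 CPM in control naive and 8.64 and 6.88 CPM in control treated libraries, and at 12.2, 11.7 and 13.6 CPM in Sox2Hi naive and 8.84 and 5.19 CPM in Sox2Hi treated libraries. Its control groups overlapped fully, with a change of 0.02 there (-0.50 in the expressed-gene fit) and -0.83 in Sox2Hi tumours. Mmp14, the membrane-bound activator of Mmp2, was at 11.1, 7.75 and 15.8 CPM in control naive and 8.64 and 9.24 CPM in control treated libraries, and at 15.2, 13.4 and 21.1 CPM in Sox2Hi naive and 10.3 and 11.4 CPM in Sox2Hi treated libraries. Timp3, a matrix-bound inhibitor of these proteases, was at 25.4, 12.4 and 29.3 CPM in control naive and 23.9 and 14.8 CPM in control treated libraries, and at 37.0, 34.7 and 49.0 CPM in Sox2Hi naive and 36.5 and 15.8 CPM in Sox2Hi treated libraries. Changes of Mmp14 were -0.37 and -0.60, and those of Timp3 -0.21 and -0.62. Lox, a lysyl oxidase that crosslinks collagen, was at 7.59, 4.47 and 9.15 CPM in control naive and 6.04 and 1.11 CPM in control treated libraries, and at 11.1, 9.77 and 17.9 CPM in Sox2Hi naive and 4.19 and 2.96 CPM in Sox2Hi treated libraries. Its 2 control treated libraries differed widely, and its changes were -1.003 and -1.85. Loxl2 was at 6.75, 4.42 and 8.71 CPM in control naive and 5.88 and 3.03 CPM in control treated libraries, and at 8.14, 6.63 and 8.68 CPM in Sox2Hi naive and 4.75 and 3.20 CPM in Sox2Hi treated libraries, with changes of -0.58 and -0.97. Loxl1 changed by -0.49 and -1.05.

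Of the receptors and contractile genes, Fap was called in control and Acta2 in Sox2Hi tumours. Pdgfra, the growth factor receptor of fibroblasts, was at 7.69, 4.84 and 9.35 CPM in control naive and 5.46 and 2.88 CPM in control treated libraries, and at 7.38, 8.03 and 11.7 CPM in Sox2Hi naive and 6.54 and 4.83 CPM in Sox2Hi treated libraries. Pdgfrb, its counterpart on pericytes, was at 2.198, 2.76 and 3.43 CPM in control naive and 1.76 and 1.997 CPM in control treated libraries, and at 2.22, 1.92 and 2.46 CPM in Sox2Hi naive and 1.84 and 1.69 CPM in Sox2Hi treated libraries. Neither was called in either graft in the all-gene fit (-0.81 and -0.66 for Pdgfra, -0.57 and -0.32 for Pdgfrb), and background equalled 44.1% and 74.7% of their counts. Pdgfra was called lower in control tumours in the expressed-gene fit (-1.33, edgeR adjusted p = 0.00656), where Pdgfrb was too low to be tested. Fap, fibroblast activation protein, was the gene that rose in control tumours, at 2.95, 4.27 and 2.99 CPM in control naive and 4.28 and 7.03 CPM in control treated libraries, and at 2.38, 2.85 and 2.13 CPM in Sox2Hi naive and 3.92 and 3.20 CPM in Sox2Hi treated libraries in the other graft. Treated libraries lay above naive ones in both grafts, by 0.74 (SE 0.26, edgeR adjusted p = 0.0487) in control tumours and 0.54 (SE 0.27, edgeR adjusted p = 0.280) in Sox2Hi tumours. Background equalled 50.6% of the counts of Fap, 7 of 10 fits without 1 library lost the call, and with library totals as the only scaling its change in control tumours was -0.35.

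Acta2, smooth muscle actin, was at 30.8, 23.6 and 40.9 CPM in control naive and 35.7 and 31.4 CPM in control treated libraries, and at 36.8, 32.2 and 44.8 CPM in Sox2Hi naive and 19.4 and 19.3 CPM in Sox2Hi treated libraries. The control groups overlapped, and both Sox2Hi treated libraries were lower than the other 8. In control tumours its change was 0.08 (SE 0.23, edgeR adjusted p = 0.803), and -0.45 in the expressed-gene fit (adjusted p = 0.0660). In Sox2Hi tumours Acta2 fell by -0.97 (SE 0.24, edgeR adjusted p = 0.0495), and 8 of the 10 fits without 1 library lost that call. Tagln, transgelin, another smooth muscle gene, was at 1.60, 1.41 and 4.60 CPM in control naive and 2.27 and 0.370 CPM in control treated libraries, and at 2.98, 2.85 and 5.49 CPM in Sox2Hi naive and 0.895 and 0.846 CPM in Sox2Hi treated libraries, with changes of -0.98 and -2.10 that were not called. Pericyte and smooth muscle markers outside the 40 genes (9 genes) summed to 0.00434% to 0.00702% of counts in control naive, 0.00260% and 0.0130% in control treated, 0.00558% to 0.00828% in the naive and 0.00354% and 0.00497% in the treated libraries of Sox2Hi grafts. Expected background equalled 26.6% of their counts. Of the 9, Rgs5 rose and Mcam (-0.66) and Cspg4 (-1.21) fell in control tumours (median -0.24), against 18.7% and 15.3% of all genes. Background equalled 188% of the Cspg4 counts, and DESeq2 and limma-voom called 0 of the 9 lower there. In Sox2Hi tumours edgeR, DESeq2 and limma-voom called 0 (edgeR, 1 at an unadjusted p-value under 0.05). Rgs5, the pericyte marker among them with the highest CPM, stood at 12.7, 6.45 and 35.9 CPM in control naive libraries and 24.8 and 201.5 CPM in control treated ones, and at 29.2, 33.0 and 55.4 CPM and 23.1 and 19.0 CPM in the Sox2Hi groups. Its value in control treated replicate 1 lay inside the naive range. It changed by 2.62 in control and -0.90 in Sox2Hi tumours (edgeR adjusted p = 0.0198 and 0.543), with an interaction of -3.52 (edgeR adjusted p = 0.0344). Without control treated replicate 2 the control change was 0.45 and the interaction -1.36 (edgeR adjusted p = 0.663 and 0.283). These 3 markers were named after their values were seen. The part of these markers in the Acta2 result was not tested.

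In naive tumours no matrix gene was called between Sox2Hi and control grafts in the fit without a block. The edgeR test called 0 of 40, against 1.87% over the whole table, and 5 of the 40 had an unadjusted p-value under 0.05. DESeq2 called 4 and limma-voom 3, against 13.9% and 18.8% of all genes in the same fits. The median change was 0.33. In the expressed-gene fit it was 0.03, with 0 of 31 called, 1 of them at an unadjusted p-value under 0.05, against 14.0% of all genes called. No label pairs the libraries. With the title number as a block, a pairing taken from these data, 5 of 40 were called, against 7.70% of all genes in either direction. All 5 were higher in Sox2Hi: Col8a1 (0.78), Fn1 (0.84), Bgn (0.82), Mmp2 (0.78) and Timp3 (0.93), with edgeR adjusted p-values from 0.0248 to 0.0473. With the description number as a block, which numbers the naive libraries alike but not the treated ones, 0 of 40 were called, against 301 of 29648 genes. The block on the naive libraries alone called 7 of 40, all higher, against 14.3% of all genes in either direction. For Fn1 the unblocked change was 0.84 (SE 0.23, edgeR adjusted p = 0.0698), from 99.0 ± 23.4 CPM to 178 ± 43.8 CPM (SD, n = 3 each), and the groups did not overlap. Cthrc1 did not overlap either (0.74, adjusted p = 0.169).

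In treated tumours edgeR also called 0 of 40 between Sox2Hi and control, against 13.7% over the whole table, and 7 of the 40 had an unadjusted p-value under 0.05. DESeq2 called 1 gene, Acta2, lower in Sox2Hi, and limma-voom 0, against 18.6% and 11.2% of all genes. In the expressed-gene fit 4 of 31 genes were higher in Sox2Hi, against 20.9% of all genes called in either direction: Col3a1 (1.83), Col8a1 (0.95), Fn1 (1.09) and Cthrc1 (1.71). Col3a1 had 59.2 CPM in one Sox2Hi treated library and 17.5 CPM in the other, the latter inside the range of the control treated libraries.

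The response to treatment differed between grafts for 2 of 40 genes by the interaction term, against 27.5% of all genes (edgeR). Acta2 had the lower response in Sox2Hi (-1.05 (SE 0.33, edgeR adjusted p = 0.0371)). Col11a1, a minor fibrillar chain, had the higher one (1.60 (SE 0.50, edgeR adjusted p = 0.0357)), at 4.90, 6.14 and 2.50 CPM in control naive and 2.01 and 1.18 CPM in control treated libraries and 3.69, 3.55 and 3.19 CPM in Sox2Hi naive and 3.41 and 4.05 CPM in Sox2Hi treated libraries. Expected background equalled 110.2% of its counts over all 10 libraries. In the expressed-gene fit edgeR called 0 of 31, against 19.8% of all genes there. Of these 31, 3 had an unadjusted p-value under 0.05, and their median was 0.61, while that of the 40 genes in the all-gene fit was -0.12. For Col1a1, Sparc and Cthrc1 the interaction was 0.34, 0.23 and 0.53, with standard errors of 0.79, 0.66 and 0.65.

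Genes that process collagen before it leaves or just outside the cell fell in part. Of 26 such genes, 8 fell and 3 rose in control tumours, and 3 fell in Sox2Hi tumours, with medians of -0.62 and -0.56. Over all genes 15.3% were called lower and 18.7% higher in control tumours and 1.82% lower in Sox2Hi tumours. The order of the grafts turned with DESeq2, which called 5 lower and 4 higher in control and 9 lower in Sox2Hi tumours (limma-voom 7 and 7 lower, with 3 higher in control). Of all genes, DESeq2 called 4.63% lower and 21.4% higher in control and 7.98% lower in Sox2Hi tumours, and limma-voom 8.44%, 18.4% and 5.62%. Plod2, a lysyl hydroxylase, changed from 9.63 ± 3.92 to 1.85 ± 0.836 CPM in control tumours (-2.36 (SE 0.42, edgeR adjusted p = 0.00149)). Pcolce, an enhancer of procollagen trimming, fell by -1.64 (SE 0.35, edgeR adjusted p = 0.00479). P4ha1, a subunit of prolyl hydroxylase, rose from 28.1 ± 7.93 to 111 ± 2.49 CPM (1.99), and Mia3, which loads procollagen for export, rose by 1.08. In Sox2Hi tumours Serpinh1, the collagen chaperone HSP47, fell from 85.2 ± 24.4 to 12.1 ± 9.65 CPM (-2.81 (SE 0.66, edgeR adjusted p = 0.0426)), and Pcolce2 fell by -1.55 (SE 0.25, edgeR adjusted p = 0.00954). Plod2, Pcolce and Pcolce2 lay on the side of the collagens, while P4ha1 and Mia3 lay opposite to them in control tumours.

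Of 34 other matrix genes, 13 fell and 2 rose in control tumours and 5 fell in Sox2Hi tumours, against the same shares of all genes (15.3%, 18.7% and 1.82%), with medians of -0.67 and -0.42. With DESeq2 6 fell in control and 10 in Sox2Hi tumours, and with limma-voom 11 and 9. Mfap4, a microfibril protein, fell by -2.17 in control tumours. Timp1, a protease inhibitor, fell in both grafts (-1.40 and -1.62), from 37.3 ± 15.5 to 14.2 ± 0.0404 CPM and from 42.8 ± 10.2 to 13.9 ± 1.63 CPM. Tnc, tenascin C, fell by -1.68 in Sox2Hi tumours. The 2 genes that rose in control tumours were Lamc1, a laminin chain (2.02), and Vcan, versican (1.17).

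Of 25 TGF-beta pathway genes, which include signals that drive collagen synthesis in fibroblasts, 8 rose and 2 fell in control tumours and 0 were called in Sox2Hi tumours (edgeR, 9 at an unadjusted p-value under 0.05). Of all genes, 18.7% were called higher and 15.3% lower in control tumours, and 3.61% in either direction in Sox2Hi tumours. DESeq2 called 5 and limma-voom 1 of the 25 lower in Sox2Hi tumours, and in control tumours 10 and 9 higher and 0 lower. Inhba, an activin subunit, rose by 1.72 and Tgfbi, a secreted target of the pathway, by 1.53 in control tumours, where the 40 matrix genes had a median of -1.0. With expressed genes alone 5 of 17 rose and 5 fell in control tumours, against 24.1% and 33.1% of all genes there. Of the 15 fibroblast markers outside the 40 genes, 3 fell in control tumours (Dpt -1.80, Serpinf1 -1.69 and Tcf21 -1.07) and 1 in Sox2Hi tumours (Pdpn -1.07), against 15.3% and 1.82% of all genes. Background equalled 59.4% of the Tcf21 counts, against 2.01% for Dpt and 2.76% for Serpinf1. The expressed-gene fit called 9 and 3 of 11 lower (33.1% and 6.57% of all genes there), DESeq2 2 and 6 of 15, and limma-voom 2 and 5. Pi16, known from a fibroblast subset, rose in control tumours by 1.90, from 12.8 ± 0.468 to 47.7 ± 13.8 CPM. These 5 fibroblast markers were named after their values were seen.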

How the data were processed

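Bulk RNA of 10 neutrophil libraries was measured, and the authors deposited their counts in 1 table. The submitters' processing notes name kallisto 0.44.0 and mm10, with no role given, so the deposited counts are taken as estimated counts per gene. They are whole numbers. Per the labels' protocols, libraries were made with a low-input kit, and strandedness is not given in the sources used here. Of 55481 entries, 96 are not mouse genes (at most 0.00277% of a library) and stayed out. GENCODE M21 (GRCm38) gave symbols and coordinates, and RefSeq the promoters.

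All 10 libraries entered one edgeR 4.0.16 model (R 4.3.3): filterByExpr left 29648 genes, TMM set the scaling, and contrasts used quasi-likelihood F-tests. P-values were Benjamini-Hochberg adjusted. The members and lists were chosen with earlier results of these data known. Per-library values are given for 27 genes and those with the largest called change, and 2 rises and 2 falls per list. Background is the median count per kilobase over 1464 silent receptor genes times exon length. Alternatives used DESeq2 1.42.0, limma-voom (limma 3.58.1), other scalings and filters, background subtraction, replicate blocks and libraries left out. Same-numbered naive libraries deviated together (r = 0.274, 0.241 and 0.180 across genes), so title numbers were used to pair them. Libraries with different numbers reached similar values, up to 0.277 for control naive replicate 1 with Sox2Hi treated replicate 2. The pairing comes from the data, since no label explains the numbers. The fit was also run on simulated counts with few genes changed, the same spread for every gene and no difference in background. Such counts cannot test the choice of scaling.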

Additional observations from a re-analysis of the deposited data

Results flagged for a closer look

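The response to treatment differed between grafts for 2 of 40 matrix genes by the interaction term of the edgeR fit, against 27.5% of all genes. For Acta2 the log2 response in Sox2Hi minus that in control tumours was -1.05, and 7 of 10 fits without 1 library lost the call. Col11a1 differed by 1.60, and 8 of 10 such fits lost the call. Acta2 was at -0.25 in the expressed-gene fit (edgeR adjusted p = 0.573), and Col11a1 was too low to be tested there. Expected background equalled 110.2% of the Col11a1 counts.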

How the results depend on the processing

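Counts of matrix genes called depended on scaling and on single libraries. For treatment in control tumours (19 called) factors from expressed genes gave 35 and library totals 39, while DESeq2 gave 16, limma-voom 18, RLE factors 14 and the 2 groups alone 15. Calls over all genes moved too. Of 29648 genes these fits called 16194, 21640, 7721, 7963 and 8882, and the 2 groups alone 7178 of 28443, against 10078 in the all-gene fit. For treatment in Sox2Hi tumours (6 called) the expressed-gene fit, library totals, the 2 groups alone, DESeq2 and limma-voom gave 12, 12, 22, 23 and 16, and the replicate block gave 11 by title and 10 by description number. Of all genes these fits called 2433 of 11274, 1789 of 29648, 2756 of 26863, and 3353, 2676, 1012 and 1408 of 29648, against 1070 in the all-gene fit. In naive tumours (0 called) the replicate block gave 5 by title number, 0 by description number and 7 in the naive libraries alone, DESeq2 4 and limma-voom 3. Of all genes these fits called 2282 and 301 of 29648, 3841 of 26807, and 4114 and 5570 of 29648. In treated tumours (0 called) the expressed-gene fit gave 4, factors from expressed genes 7, RLE factors 1, library totals 16, genes at least 5 times over background 2, background subtraction 1 and DESeq2 1. Of all genes these fits called 2353 of 11274, then 5404, 4958 and 10991 of 29648, 1525 of 10758, 745 of 21439 and 5503 of 29648. The replicate block gave 2 by title number, 1 by description number, and 2 with the treated numbers crossed, a pairing added after seeing the data. Of 29648 genes these blocks called 4773, 3250 and 4568. For the interaction (2 called) the expressed-gene fit, genes at least 5 times over background and background subtraction gave 0, factors from expressed genes and library totals 6, and RLE factors and all genes with a count 1. Of all genes these fits called 2228 of 11274, 1626 of 10758, 1734 of 21439, then 10934, 12501 and 8458 of 29648, and 6556 of 53207. The replicate block changed no other count by over 1.5 times. Without 1 library the counts ran from 6 to 25, 0 to 17, 0 to 2, 0 to 2 and 0 to 2 in the order control treatment, Sox2Hi treatment, naive grafts, treated grafts and interaction. Where this left 1 treated library, that library was assumed to vary like the other groups.

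Over all alternatives 6 of 40 genes turned direction at least once for treatment in control tumours (Col4a1, Mmp2, Timp3, Loxl1, Fap and Acta2) and 2 in Sox2Hi tumours (Col11a1 and Dcn). Where either value was called, with library totals Mmp2 was -1.02, Fap -0.35 and Acta2 -0.97, and with genes at least 5 times over background Acta2 was -0.53. The cause was not tested. Groups of 2 and 3 libraries limit the precision, and background equals at least 20% of counts for 20 genes.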
